A study of Rattus norvegicus with 4 samples.

Results

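The collagen genes of the rat uterus are described here on day 5 of pregnancy, around the time of implantation, in rats fed ormeloxifene and in rats given vehicle alone. The members were the genes whose platform symbol is Col, a number, the letter a and a number. There were 36 of them among 18166 genes tested, on 37 probe sets. Col5a1 alone had 2 probe sets, and the brighter one was used. By type, 11 were fibrillar, 5 encoded type IV chains of basement membranes and 20 belonged to other types. Collagen chains without a probe set under this rule, such as Col6a1 and Col4a6, were not analysed here. Ormeloxifene is a non-steroidal oral contraceptive that binds oestrogen receptors and acts as agonist or antagonist depending on the tissue. It was given by mouth on day 1 of pregnancy at 1.25 mg per kg in gum acacia, and the control group received the gum acacia vehicle. All animals were Sprague Dawley rats 10 to 12 weeks old. Each group had 2 Affymetrix whole-transcript arrays, labelled as biological replicates 1 and 2. The labels do not say how many rats gave RNA to each array, nor which part of the uterus was taken. The p-values therefore measure only the spread between these labelled replicates, which is taken partly from the gene itself and partly from all genes tested.

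Collagens are secreted proteins of the extracellular matrix in which alpha chains wind into a triple helix. Fibrillar types I, III and V build the fibres of the endometrial stroma and the myometrium, and type IV forms the network of basement membranes under epithelium and around vessels and muscle cells. The other types decorate fibrils, form beaded filaments or anchoring structures, or span the cell membrane. In the rodent uterus, oestrogen, progesterone and the onset of decidualisation are known to alter the amount and arrangement of stromal collagen. The comparison asks whether collagen transcripts differed between the groups at that stage.

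Values are log2 signals after quantile normalization, and each difference is the ormeloxifene mean minus the vehicle mean, with its standard error (SE) from limma. For each SE and p-value, limma also draws on the spread of all genes. Of the 7.55 degrees of freedom in the main fit, 2 came from the gene's own arrays. Apart from a rough level for dim probe sets, given below, a level is set only against the same probe set in other arrays. The reason is that probe sets differ in brightness for the same amount of RNA. The arrays resembled each other more by replicate number than by group. Deposited values were exactly equal at 488 probe sets between the arrays numbered 1 and at 551 between those numbered 2, and at 0 in each of the other pairs. The labels name no batch. The number was therefore taken as a possible batch that holds both groups, but only in an alternative fit with the number as a block. The main fit leaves it out, and differences are also given within each number. Markers of the tissue were present: 12 of 12 stromal, 10 of 10 smooth muscle and 11 of 12 epithelial markers lay above 6.03. That level is the 95th percentile of 1344 olfactory and vomeronasal receptor genes, which are known for expression in the nose, and it serves only to describe dim probe sets. Of the cell type lists, the one that differed most was that of proliferating cells, with 10 of 10 markers on the lower side with ormeloxifene and a median of -0.51. The sign was the same in both numbers for 8 of the 10, with medians of -0.27 in number 1 and -0.82 in number 2. By limma, 4 of the 10 had an unadjusted p under 0.05 on the lower side, against 1.08% of all genes. Likewise, 10 of 10 smooth muscle markers were on the higher side, with a median of 0.28 and the same sign in both numbers in each, though 0 had an unadjusted p under 0.05. The part of these lists in the collagen values was not tested.

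Collagen transcripts did not differ detectably between ormeloxifene and vehicle. Of the 36 genes, 18 were on the higher side with ormeloxifene and 18 on the lower side, with differences from -0.39 for Col17a1 to 0.39 for Col11a1. In linear terms these ends were 1.31-fold lower and 1.31-fold higher. The median difference was -0.0041, beside 0.017 over all genes tested. By limma, 0 members passed an adjusted p of 0.05, against 0% of all genes. At an unadjusted p under 0.05 there were also 0 members, against 2.2% of all genes (1.12% higher and 1.08% lower), and the smallest unadjusted p was 0.0989, that of Col17a1. The median size of the difference without regard to sign was 0.14 over the collagens and 0.13 over all genes.

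The 95% intervals given here come from the fit without the replicate number. All 36 intervals lay within 1 log2 unit of 0, a 2-fold change, as did those of 16405 of the 18166 genes. With the number as a block the SEs of the collagens were smaller, 0.16 to 0.24 against 0.20 to 0.28. The unblocked interval that reached lowest was that of Col8a2, at -0.90, and the one that reached highest was that of Col11a1, at 0.99. With 2 arrays per group, the smallest p of an exact permutation test on 1 gene is 0.333. The groups did not overlap in 12 of the 36 genes, 33.3%, against 25.7% of all genes. Ormeloxifene lay above vehicle in 6 of the 36, beside 13.9% of all genes, and below it in 6 of the 36, beside 11.8%. Leaving out 1 array at a time turned the sign of 21 members. The number on the higher side was as low as 14 (vehicle replicate 2 left out) and as high as 24 (ormeloxifene replicate 2 left out).

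**Figure D1:**
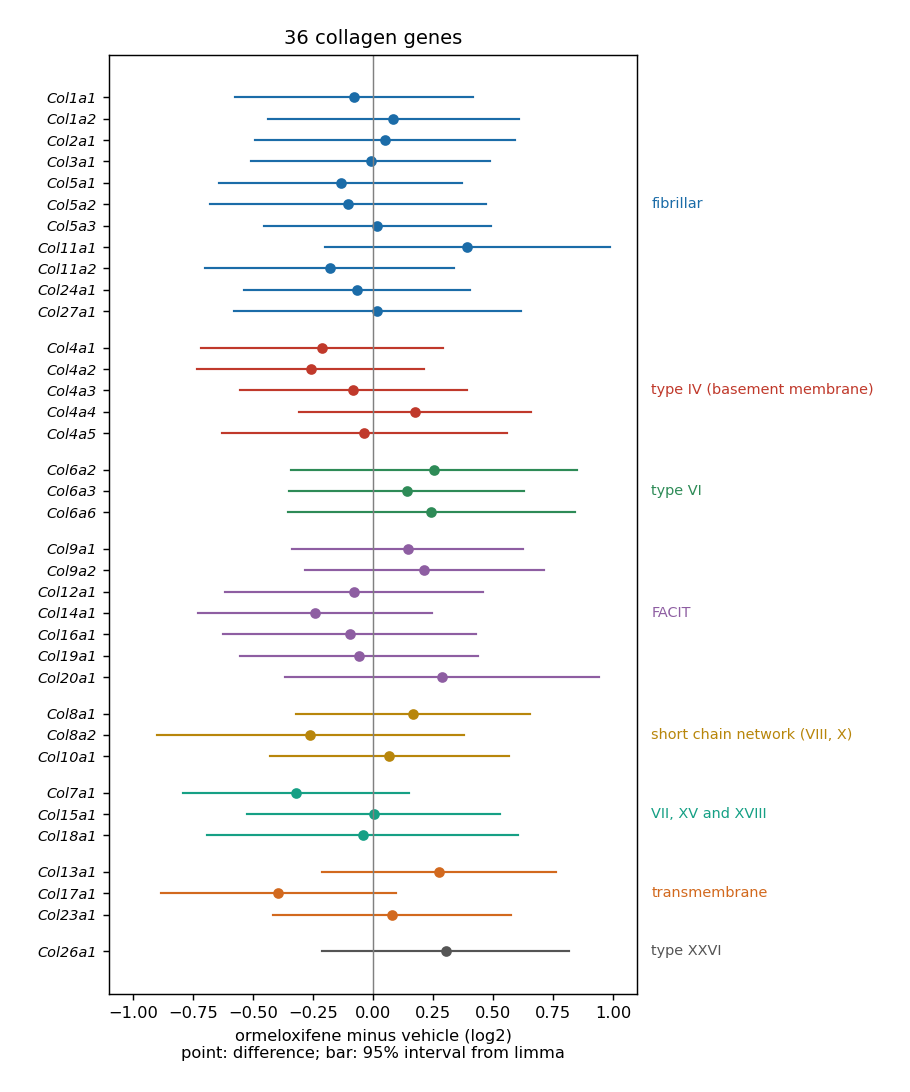
Difference between ormeloxifene and vehicle for each of the 36 collagen genes, grouped and coloured by type, on a log2 axis; points are differences and bars 95% intervals from limma with 2 arrays per group. The intervals are those of the fit without the replicate number; every bar crosses 0, and the points run from -0.39 for Col17a1 to 0.39 for Col11a1.

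The chains of the main fibres were close to equal in both groups. Col1a1 and Col1a2 encode the chains of type I collagen, the chief protein of fibrous tissue, and Col3a1 encodes type III, which shares its fibres in soft organs. The log2 signal of Col1a1 was 11.45 and 11.31 with vehicle and 11.42 and 11.19 with ormeloxifene. For Col1a2 it was 11.15 and 10.89 with vehicle and 11.24 and 10.96 with ormeloxifene. For Col3a1 it was 10.60 and 10.58 with vehicle and 10.72 and 10.43 with ormeloxifene. In all 3 genes the ormeloxifene arrays overlapped the vehicle arrays, and both arrays numbered 2 lay below both arrays numbered 1. On the values as deposited, replicate 2 lay above replicate 1 of the same group in all 3 genes. The differences were -0.080 ± 0.21 for Col1a1 (95% interval -0.58 to 0.42), 0.084 ± 0.22 for Col1a2 (-0.44 to 0.61) and -0.010 ± 0.21 for Col3a1 (-0.51 to 0.49). With the arrays centred on their medians instead, Col1a2 was at -0.015, on the other side of 0.

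Type V collagen is built into type I fibrils, where it limits their width. Col5a1 was at 7.21 and 7.15 with vehicle and 7.20 and 6.88 with ormeloxifene, a difference of -0.14 ± 0.22. Its dimmer probe set differed by -0.24, and there vehicle replicate 2, at 6.86, was the highest array. Col5a2 was at 8.60 and 8.22 with vehicle and 8.51 and 8.10 with ormeloxifene, with both arrays numbered 2 below both arrays numbered 1. That split by number was absent from the values as deposited. Col5a3 was at 6.35 and 6.40 with vehicle and 6.44 and 6.34 with ormeloxifene, and all 4 arrays were within a narrow range. The differences of Col5a2 and Col5a3 were -0.11 ± 0.25 and 0.018 ± 0.20.

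Col11a1 and Col11a2 encode type XI chains, which start fibrils in cartilage and, for Col11a1, in other tissues too. Col11a1 had the largest difference on the higher side of all 36 genes. Its signal was 6.02 and 6.54 with vehicle and 6.52 and 6.83 with ormeloxifene; the groups just overlapped, as vehicle replicate 2 lay above ormeloxifene replicate 1. The difference was 0.39 ± 0.25 (95% interval -0.20 to 0.99), or 0.50 within number 1 and 0.29 within number 2. With vehicle replicate 1 left out it was 0.13, with vehicle replicate 2 left out 0.65, and 0.24 without ormeloxifene replicate 2. Its limma adjusted p was 1.00, and 0.728 in the fit with the replicate block, where 0.0275% of all genes passed. Without the block its unadjusted p was 0.163 and with it 0.0475, which made it the single collagen under 0.05, and so with an interval clear of 0, in that fit, against 6.76% of all genes. Col11a2 went the other way, at 6.54 and 6.52 with vehicle and 6.16 and 6.53 with ormeloxifene, where ormeloxifene replicate 1 alone was low; the difference was -0.18 ± 0.22.

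Among the remaining fibrillar genes, Col24a1 and Col27a1 encode the shorter fibrillar types XXIV and XXVII, and Col2a1 the main collagen of cartilage. Col24a1 was at 6.25 and 6.22 with vehicle and 6.19 and 6.14 with ormeloxifene, a difference of -0.068 ± 0.20. Its groups did not overlap, by a margin smaller than its SE. That SE draws on other genes too, as the standard deviations of its own arrays were 0.016 with vehicle and 0.037 with ormeloxifene. Col27a1 was at 7.02 and 6.58 with vehicle and 7.03 and 6.60 with ormeloxifene, a difference of 0.018 ± 0.26, with the arrays split by number. Col2a1 was at 5.91 and 5.67 with vehicle and 6.03 and 5.64 with ormeloxifene, a difference of 0.050 ± 0.23. Its mean lay below 6.03, and 0 of 7 cartilage markers measured, such as Acan and Matn1, lay above that level. Over the 11 fibrillar genes, 5 were on the higher and 6 on the lower side, and the median was -0.010. That median was -0.14 without ormeloxifene replicate 1 and 0.10 without ormeloxifene replicate 2, so its sign rested on single arrays. The groups did not overlap in 1 of the 11 (9.09%), beside 25.7% of all genes. For type IV genes it was 3 of 5 (60%) and for the other types 8 of 20 (40%). These shares rest on few genes and were not tested.

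**Figure D2:**
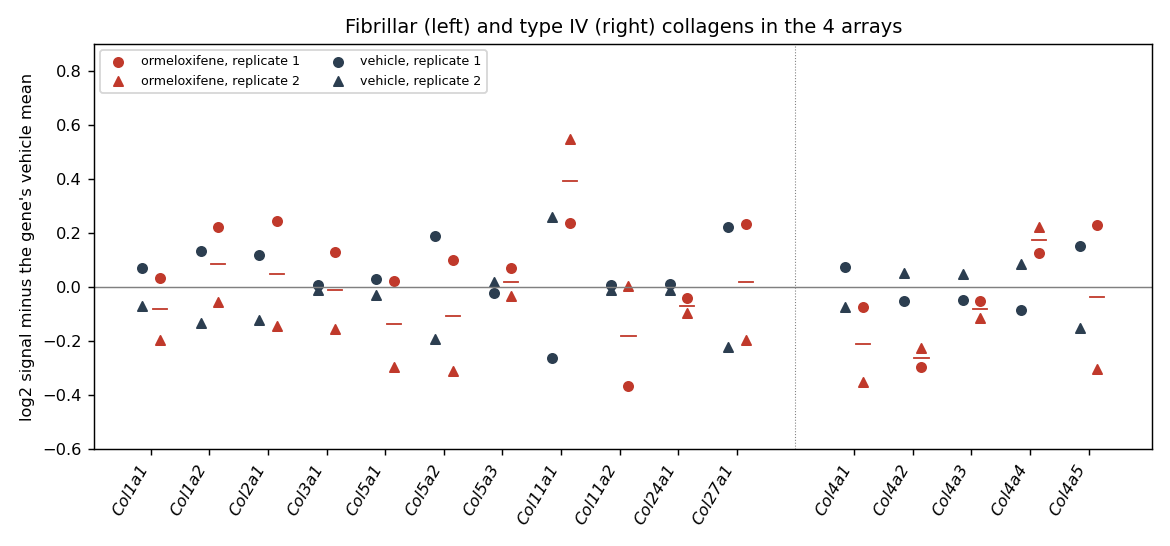
Log2 signal of each array minus the gene's vehicle mean, for the 11 fibrillar genes on the left and the 5 type IV genes on the right; circles are replicate 1, triangles replicate 2, and the red line is the ormeloxifene mean. On these quantile normalized values, circles tend to lie above triangles within the same group for fibrillar genes such as Col5a2 and Col27a1. For Col4a2 both ormeloxifene arrays lie below both vehicle arrays.

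Type IV genes lie in head-to-head pairs, whose chains wind into the same molecules: Col4a1 with Col4a2 in nearly all basement membranes, and Col4a3 and Col4a4 with Col4a5 in a few specialised ones. In the RefSeq annotation of GRCr8, the starts of Col4a1 and Col4a2 on chromosome 16 are 76 bases apart, so that 1 stretch is upstream of both. The starts of Col4a3 and Col4a4 on chromosome 9 are 412 bases apart. These upstream sequences are shown because each pair can be read as 1 promoter region beside the values of both genes; they are written 5′ to 3′, with matches in capitals to any of 5 motifs on either strand. The motifs were the GC box GGGCGG, the CCAAT box, the TATA box TATAAA, the AP-1 site TGANTCA and the full oestrogen response element, which is GGTCA and its inverted repeat 3 bases apart, and the search allowed overlaps. The first stretch, between the starts at chr16:84885521-84885596, is on the strand of Col4a1. The others are the 250 bases before the start of Col4a3 (chr9:91323740-91323989, plus strand) and of Col4a4 (chr9:91323578-91323827, minus strand), which overlap by 88 bases.
Col4a1 and Col4a2: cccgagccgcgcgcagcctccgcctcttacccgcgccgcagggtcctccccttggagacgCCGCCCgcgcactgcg
Col4a3: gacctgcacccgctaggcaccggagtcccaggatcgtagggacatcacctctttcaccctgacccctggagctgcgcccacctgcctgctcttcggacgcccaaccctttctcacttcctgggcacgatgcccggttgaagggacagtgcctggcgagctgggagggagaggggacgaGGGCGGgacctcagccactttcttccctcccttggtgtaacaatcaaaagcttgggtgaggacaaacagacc
Col4a4: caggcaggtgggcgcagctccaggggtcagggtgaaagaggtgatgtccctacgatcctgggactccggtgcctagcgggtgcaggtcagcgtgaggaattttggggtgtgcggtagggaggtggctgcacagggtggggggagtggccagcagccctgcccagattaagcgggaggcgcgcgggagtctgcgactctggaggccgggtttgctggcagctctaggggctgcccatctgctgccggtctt
The stretch shared by Col4a1 and Col4a2 holds 1 GC box, read on the opposite strand, and no match to the other motifs within its 76 bases. The 250 bases before each of these 2 starts, which run past the start of the other gene, did hold a CCAAT. A GC box occurs in 18.1% of all 33469 promoters in a window of the same length. The longer window of Col4a3, of 250 bases, also holds 1 GC box, and that of Col4a4 has no match.

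Both genes of the first pair were on the lower side with ormeloxifene. Col4a2 was at 7.24 and 7.34 with vehicle and 6.996 and 7.06 with ormeloxifene, with both ormeloxifene arrays below both vehicle arrays. Col4a1 was at 7.60 and 7.45 with vehicle and 7.45 and 7.17 with ormeloxifene, where ormeloxifene replicate 1 and vehicle replicate 2 were equal to the last digit shown. The differences were -0.26 ± 0.20 for Col4a2 (95% interval -0.73 to 0.21) and -0.21 ± 0.22 for Col4a1 (-0.72 to 0.29). They were -0.24 within number 1 and -0.28 within number 2 for Col4a2, and -0.15 within number 1 and -0.27 within number 2 for Col4a1. Without ormeloxifene replicate 2 the difference of Col4a1 was -0.074, and without ormeloxifene replicate 1 it was -0.35. Neither passed: the limma unadjusted p-values were 0.239 and 0.359, and both adjusted p-values were 1.00.

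The genes of the second pair lay on opposite sides of 0. Col4a3 was at 6.22 and 6.31 with vehicle and 6.21 and 6.15 with ormeloxifene, a difference of -0.082 ± 0.20. Col4a4 was at 5.98 and 6.15 with vehicle and 6.19 and 6.29 with ormeloxifene, a difference of 0.17 ± 0.21, or 0.089 without vehicle replicate 1. In neither gene did the groups overlap, but the gaps between them were below 0.05 on the log2 scale. Col4a5, on the X chromosome, was at 6.60 and 6.30 with vehicle and 6.68 and 6.15 with ormeloxifene, with the arrays split by number and a difference of -0.036 ± 0.26. Over the type IV genes, 4 of 5 were on the lower side and the median was -0.082. Without ormeloxifene replicate 1 it was -0.23 and without ormeloxifene replicate 2 it was -0.052. Means of 12 epithelial markers were 7.23 and 7.43 with vehicle and 7.23 and 7.31 with ormeloxifene, and means of 10 endothelial markers were 7.23 and 7.36 with vehicle and 7.41 and 7.36 with ormeloxifene. Their part in the type IV values was not tested. In whole tissue RNA, fewer cells of a type and less RNA per cell cannot be told apart.

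Type VI collagen forms beaded filaments between cells and fibres, and all 3 of its measured genes were on the higher side. Col6a2 was at 9.86 and 10.47 with vehicle and 10.38 and 10.45 with ormeloxifene, where vehicle replicate 1 alone was low. Col6a3 was at 9.24 and 9.33 with vehicle and 9.32 and 9.53 with ormeloxifene, and the groups overlapped. Their differences were 0.26 ± 0.26 and 0.14 ± 0.21, and without vehicle replicate 1 that of Col6a2 was -0.050. Col6a6, on a dim probe set, differed by 0.24 ± 0.26. The limma unadjusted p-values of the 3 genes ran from 0.349 to 0.525.

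FACIT collagens are interrupted helices that sit on the surface of fibrils, and 3 of the 7 measured were on the higher and 4 on the lower side. Col14a1, which binds fibrils through decorin and is abundant in stroma, was at 9.04 and 9.26 with vehicle and 8.91 and 8.91 with ormeloxifene. Both ormeloxifene arrays lay below both vehicle arrays, and the difference was -0.24 ± 0.21 (95% interval -0.73 to 0.24), or -0.13 without vehicle replicate 2. Col12a1, a close relative found in dense connective tissue, was at 9.37 and 9.02 with vehicle and 9.25 and 8.98 with ormeloxifene, a difference of -0.080 ± 0.23 with overlapping groups. Col16a1 differed by -0.098 ± 0.23 and Col19a1 by -0.059 ± 0.21. The type IX genes Col9a1 and Col9a2, best known from cartilage, differed by 0.14 ± 0.21 and 0.21 ± 0.21. Col20a1, at 5.99 and 5.31 with vehicle and 6.11 and 5.76 with ormeloxifene, had one of the 3 largest differences on the higher side, 0.29 ± 0.28. Vehicle replicate 2 was its lowest array, and without it the difference was -0.050.

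The short chain types VIII and X form hexagonal networks, VIII under endothelium and X in growth plates. Col8a2 had one of the 3 largest differences on the lower side, -0.26 ± 0.27, but its arrays were at 7.34 and 6.73 with vehicle and 6.57 and 6.97 with ormeloxifene. The highest was vehicle replicate 1, and the difference was -0.76 within number 1 and 0.24 within number 2; without vehicle replicate 1 it was 0.045. Its partner Col8a1 differed by 0.17 ± 0.21 and Col10a1 by 0.067 ± 0.21, both on dim probe sets. Col15a1 and Col18a1 encode multiplexins of basement membrane zones, and the C-terminal part of the latter is released as endostatin. They differed by 0.0021 ± 0.23 and -0.043 ± 0.28. Col18a1 was at 7.16 and 7.70 with vehicle and 7.13 and 7.65 with ormeloxifene, so that the arrays numbered 2 were about equally far above those numbered 1 in both groups. The sign of Col15a1 turned to -0.031 with arrays centred on their medians and to -0.010 on the values as deposited.

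The largest differences on the lower side were those of Col17a1 and Col7a1, which act at the junction of epithelium and stroma. Col17a1 encodes a transmembrane collagen of hemidesmosomes, and Col7a1 the anchoring fibrils below them. The upstream sequence of Col17a1 and that of Col11a1, the genes at either end of the range, are shown as the 250 bases before their starts in the RefSeq annotation of GRCr8. They are at chr1:256518858-256519107 on the minus strand and at chr2:204508886-204509135 on the plus strand, with capitals for the same motifs as above.
Col17a1: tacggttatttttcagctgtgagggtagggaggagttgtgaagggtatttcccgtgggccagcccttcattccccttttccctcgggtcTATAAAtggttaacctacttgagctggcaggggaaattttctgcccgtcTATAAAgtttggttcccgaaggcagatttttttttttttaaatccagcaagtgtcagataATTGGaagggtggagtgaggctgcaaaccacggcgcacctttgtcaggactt
Col11a1: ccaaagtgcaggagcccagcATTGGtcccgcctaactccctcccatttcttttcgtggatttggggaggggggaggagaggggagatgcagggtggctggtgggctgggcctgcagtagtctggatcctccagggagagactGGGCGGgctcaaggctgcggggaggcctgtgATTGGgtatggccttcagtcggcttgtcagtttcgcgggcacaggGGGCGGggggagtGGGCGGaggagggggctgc
Upstream of Col17a1 there are 2 TATAAA matches and 1 CCAAT, and upstream of Col11a1 there are 3 GC boxes and 2 CCAAT. In windows of the same length, TATAAA occurred in 12.9%, CCAAT in 34% and the GC box in 30.5% of all 33469 promoters. The promoter table held 30 of the 36 collagen genes, of which 18 had a GC box, 8 a CCAAT and 4 a TATAAA. The AP-1 site and the full oestrogen response element had 0 matches in these 30, and occurred in 6.34% and 0.0239% of all promoters. The latter is so rare that 0 in 30 promoters does not set collagen genes apart.

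Col17a1 was at 6.89 and 7.09 with vehicle and 6.66 and 6.54 with ormeloxifene, with both ormeloxifene arrays below both vehicle arrays. The difference was -0.39 ± 0.21 (95% interval -0.88 to 0.094), or -0.24 within number 1 and -0.55 within number 2. Col7a1 was at 6.89 and 6.97 with vehicle and 6.62 and 6.59 with ormeloxifene, again with the groups apart. Its difference was -0.32 ± 0.20 (-0.79 to 0.15), or -0.27 within number 1 and -0.37 within number 2. The limma unadjusted p-values were 0.0989 and 0.153, and 0.0518 and 0.087 in the blocked fit; adjusted over all genes they were 1.00 without the block and 0.742 and 0.799 with it. The 12 epithelial markers given above had a median difference of -0.11, and their part in these values was not tested. The other transmembrane types, Col13a1 and Col23a1, differed by 0.28 ± 0.21 and 0.080 ± 0.21, and without ormeloxifene replicate 1 the former was 0.17. Col26a1, which encodes type XXVI, was at 5.03 and 5.39 with vehicle and 5.50 and 5.52 with ormeloxifene, a difference of 0.30 ± 0.22 on a dim probe set; without vehicle replicate 1 it was 0.12.

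**Figure D3:**
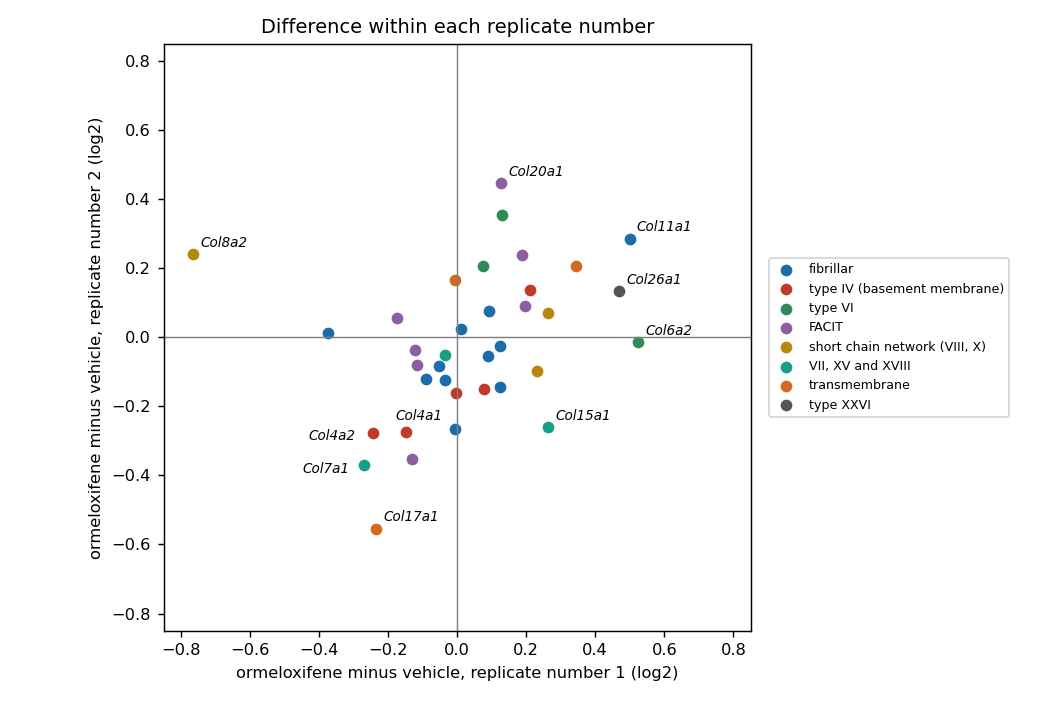
Difference between ormeloxifene and vehicle (log2) within replicate number 1, horizontal, and within replicate number 2, vertical; each point is 1 of the 36 collagen genes, coloured by type. Col17a1, Col7a1, Col4a1 and Col4a2 are below 0 in both numbers and Col11a1 above 0 in both, whereas Col8a2 is at -0.76 in number 1 and 0.24 in number 2.

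Within each replicate number, which is 1 array against 1, the collagens had a median difference of 0.043 in number 1 and -0.030 in number 2, beside 0.044 and -0.015 over all genes. The sign was the same in both numbers for 25 of 36 genes, 69.4%, beside 52.3% of all genes. Fibrillar genes had medians of 0.011 and -0.054, type IV genes of -0.0037 and -0.16, and the other types of 0.10 and 0.064.

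After quantile normalization, most fibrillar genes had a lower signal in the arrays numbered 2 than in those numbered 1, with vehicle and with ormeloxifene. Replicate 2 lay below replicate 1 in 9 of 11 fibrillar genes with vehicle and in 9 of 11 with ormeloxifene, 8 of them in both groups. Over all genes the share was 45.4% with vehicle, 52% with ormeloxifene and 31.8% in both. The median of number 2 minus number 1 over the fibrillar genes was -0.061 with vehicle and -0.28 with ormeloxifene. For Col27a1 the gaps were -0.44 and -0.43, and for Col5a2 -0.38 and -0.41. The direction rested on the normalization. On the values as deposited, whose medians were higher in the arrays numbered 2, most fibrillar genes went the other way in each group. Col1a1 was then at 11.25 and 11.55 with vehicle and at 11.16 and 11.37 with ormeloxifene. Col2a1 and Col27a1 stayed lower in number 2 in both groups. All 3 type VI genes were higher in number 2 in both groups, with medians of 0.31 and 0.22. The median gap of the smooth muscle markers was -0.22 (vehicle) and -0.27 (ormeloxifene), and that of the stromal markers 0.026 and -0.14. Their part in the collagen values was not tested. Because both groups hold both numbers, such a gap widens the spread within a group and cancels in the difference between groups as far as it is equal in both.

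**Figure D4:**
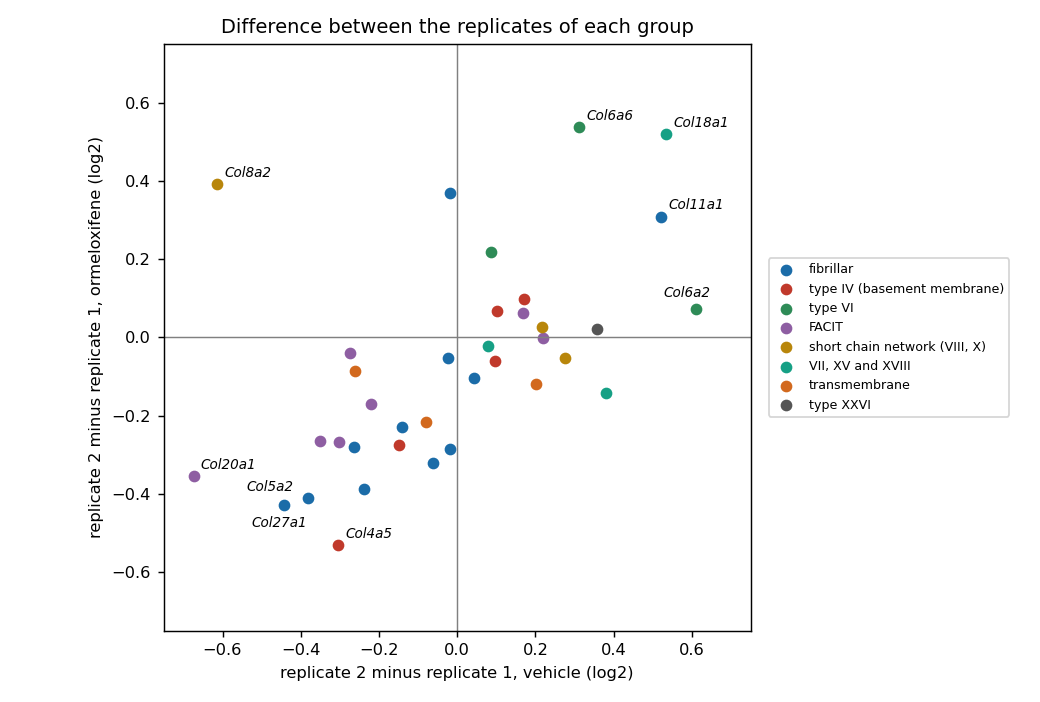
Replicate 2 minus replicate 1 (log2) in the vehicle group, horizontal, and in the ormeloxifene group, vertical; each point is 1 of the 36 collagen genes, coloured by type. Points lie mostly in the lower left and upper right, with 17 genes below 0 in both groups and 10 above 0 in both. The sign was the same in both groups for 75% of the collagens, beside 66.3% of all genes. Col8a2 is the farthest exception.

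Dim collagen probe sets lay mostly on the higher side with ormeloxifene and brighter ones more often on the lower side, a split that was not tested. The mean signal was above 6.03 in 28 of 36 collagen genes, 77.8%, beside 56% of all genes. Of these 28, 11 were on the higher side and 17 on the lower side, with a median of -0.055. Of the 8 dim ones, 7 were on the higher side, with a median of 0.16. Among those 7, Col2a1, Col6a6, Col10a1 and Col20a1 turned sign with 1 array left out. Brighter genes such as Col1a1 and Col1a2 did so as well. Over all genes, 53.4% were on the higher side. That share was not taken for dim and brighter genes apart, so the split cannot be called particular to collagens. The dim genes were Col2a1, Col6a6, Col8a1, Col9a1, Col10a1, Col19a1, Col20a1 and Col26a1, and whether they were transcribed at all in this tissue cannot be read from these values.

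Genes whose products fold, assemble, bind or break down collagen were also centred near 0, and 0 of them passed the adjusted threshold by limma. Of the enzymes and chaperones that fold and modify collagen in the endoplasmic reticulum, 12 of 20 measured were on the higher and 8 on the lower side, with a median of 0.062. The smallest p-values there were those of Plod2 (0.45 ± 0.21), the lysyl hydroxylase of the chain ends used in cross-links, Plod1 (0.34 ± 0.21), which acts on the helix, and P3h2 (-0.29 ± 0.21), a prolyl 3-hydroxylase. At an unadjusted p under 0.05 stood 0, against 2.2% of all genes. Without vehicle replicate 1 the difference of Plod1 was 0.22 and that of P3h2 was -0.18.

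Of the genes for trimming, cross-linking and fibril assembly, 13 of 24 measured were on the higher and 11 on the lower side, with a median of 0.015. At an unadjusted p under 0.05 stood 2, both on the higher side, against 1.12% of all genes. Prelp, a leucine-rich proteoglycan that links basement membranes to collagen, was at 9.67 and 9.75 with vehicle and 10.64 and 10.52 with ormeloxifene. Both ormeloxifene arrays stood well clear of both vehicle arrays. The difference was 0.87 ± 0.20 (95% interval 0.40 to 1.35), or 0.97 within number 1 and 0.77 within number 2, and limma gave it an unadjusted p of 0.00314 and an adjusted p of 1.00, or 0.27 in the blocked fit. When the blocked fit used deposited values without quantile normalization, its adjusted p was 0.0423, and of the 39.5 degrees of freedom behind that p-value, 1 came from the gene's own arrays. Fmod, fibromodulin, which binds type I collagen and shapes its fibrils, was at 5.96 and 6.15 with vehicle and 6.56 and 6.57 with ormeloxifene, a difference of 0.51 ± 0.21 with an unadjusted limma p of 0.0401. Efemp1, a fibulin of the matrix, differed by 0.51 ± 0.24, and by 0.24 without vehicle replicate 1.

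Of the collagen receptors and uptake genes, 6 of 11 measured were on the higher and 5 on the lower side, with a median of 0.019. The first by p were Ddr2 (0.36 ± 0.20), a receptor tyrosine kinase for fibrillar collagen, the integrin chain Itga10 (0.36 ± 0.28) and the uptake receptor Mrc2 (0.28 ± 0.24). Of the proteases and inhibitors of collagen breakdown, 9 of 15 measured were on the higher and 6 on the lower side, with a median of 0.057. Ctsk (0.45 ± 0.22), a lysosomal collagenase, Mmp8 (-0.37 ± 0.24), the collagenase of neutrophils, and the inhibitor Timp2 (0.35 ± 0.24) came first. Mmp8 was also on a dim probe set, with means of 5.14 with vehicle and 4.77 with ormeloxifene. Of the transforming growth factor beta genes that act on matrix production, 8 of 14 measured were on the higher and 6 on the lower side, with a median of 0.069. Tgfb3 (0.40 ± 0.21), the pathway target Ccn2 (-0.42 ± 0.23), also known as connective tissue growth factor, and the latency protein Ltbp1 (0.36 ± 0.22) came first. In these 3 lists 0 genes had an unadjusted p under 0.05, against 2.2% of all genes, a rate at which lists of this size hold few or none. With 1 array left out at a time, the difference ran from 0.071 to 0.66 for Itga10, 0.095 to 0.47 for Mrc2, -0.63 to -0.11 for Mmp8 and 0.12 to 0.59 for Timp2. For Ccn2 it ran from -0.64 to -0.21 and for Ltbp1 from 0.20 to 0.52. The lowest and highest of Itga10, Mrc2, Mmp8, Timp2 and Ccn2 came without ormeloxifene replicate 1 or 2, and those of Ltbp1 without vehicle replicate 2 or 1. The means of 12 stromal markers were 9.50 and 9.57 with vehicle and 9.69 and 9.60 with ormeloxifene, and those of 10 smooth muscle markers were 9.35 and 9.07 with vehicle and 9.59 and 9.35 with ormeloxifene. Their part in these values was not tested.

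**Figure D5:**
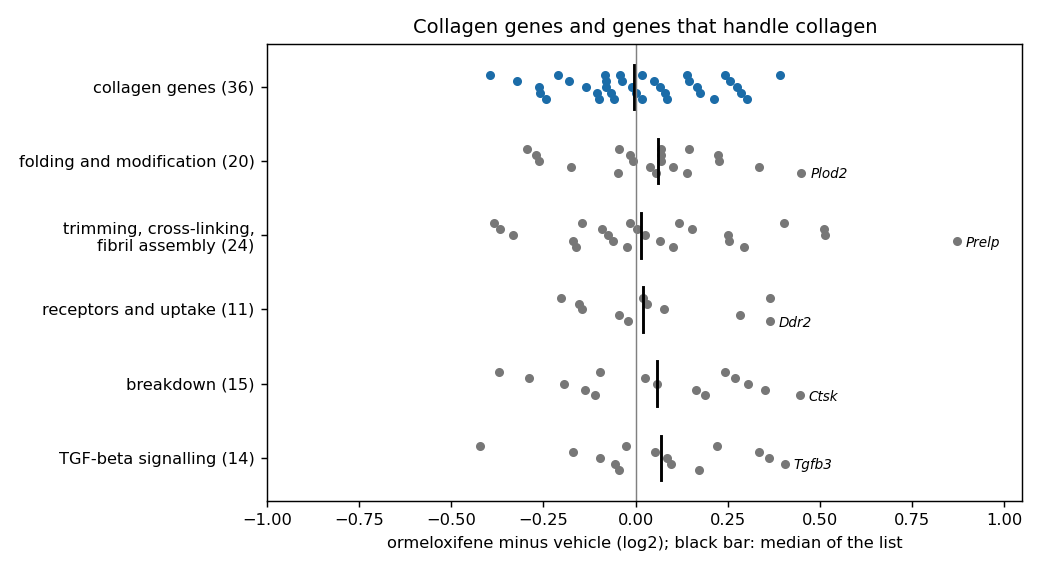
Difference between ormeloxifene and vehicle (log2) for the 36 collagen genes and for 5 lists of genes that handle collagen; each point is 1 gene, black bars are medians, and the gene of smallest p in each list is named. The medians lie between -0.0041 and 0.069, and Prelp stands apart at 0.87.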

How the data were processed

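Uterine RNA of 2 ormeloxifene and 2 vehicle arrays was labelled from 100 ng of total RNA, per the labels' protocols. The deposited log2 values of 36685 probe sets were made by the authors with Affymetrix Expression Console, per the submitters' processing notes, with a version, summary method and probe set build not given in the sources used here. No source names the scale, and the range of 0.92 to 13.59 is that of log2 signals. Because column medians ran from 5.67 to 5.93, arrays were quantile normalized. Platform annotation gave 1 symbol for 18511 probe sets; the brightest was kept for each of 18166 genes. Differences come from limma 3.58.1 in R 4.3.3 (lmFit, eBayes without trend, 2-sided), with Benjamini-Hochberg adjustment over all 18166 genes, a threshold of 0.05 and 7.55 degrees of freedom after moderation. The script was tested on simulated data. The number of arrays limits the precision. Collagen genes and lists were chosen with earlier results of these data known, so lists have no test. All members were described, in full if fibrillar, type IV or among the 3 largest differences in either direction; from each other list, the 3 genes of smallest p were named. Upstream sequences are from RefSeq, build GRCr8, matched by gene number. Alternatives changed scaling, block, probe set rule, filter, moderation and 1 array at a time. Groups and numbers are those of the labels, and every deposited column was used.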

Additional observations from a re-analysis of the deposited data

How the results depend on the processing

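In every setting run, 0 collagen genes passed an adjusted p of 0.05, and 15 of 36 kept the sign of their difference throughout. Over all genes the number past that threshold was 0 in the reported fit, on the values as deposited, with all 36685 probe sets tested and without ormeloxifene replicate 2. It was 1 with arrays centred on the median or probe sets of a gene averaged, 4 with the lowest 25% of genes left out and 3 with a trend in the moderation. Leaving out 1 array gave 0 to 3. Same-numbered arrays deviated together from their group means (r = 0.475 across genes, which are not independent replicates). With the replicate block the count was 5, and 84 when the block was fitted to deposited values, with 1 residual degree of freedom per gene; the smallest adjusted p of a collagen gene was then 0.728 and 0.815. The block changed no collagen call. Among the 15 genes named from other lists, the calls stayed as they were except that of Prelp in the last of these fits. The cause of these changes in count was not tested.

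Leaving out 1 array moved the median difference from -0.068 to 0.072 over all collagens, -0.14 to 0.10 over fibrillar genes, -0.23 to -0.052 over type IV genes and 0.059 to 0.14 over the other types; each such fit has fewer samples and assumes that the lone array of a group varies as the arrays of the other group do. The sign of 21 genes turned in at least 1 such setting, with ranges of -0.57 to 0.045 for Col8a2, -0.37 to 0.0042 for Col11a2, -0.30 to 0.025 for Col5a1, -0.31 to 0.10 for Col5a2, -0.25 to 0.053 for Col16a1, -0.19 to 0.034 for Col1a1, -0.26 to 0.096 for Col12a1, -0.20 to 0.077 for Col19a1, -0.31 to 0.22 for Col18a1, -0.30 to 0.23 for Col4a5, -0.15 to 0.13 for Col3a1, -0.19 to 0.19 for Col15a1, -0.033 to 0.070 for Col5a3, -0.20 to 0.24 for Col27a1, -0.14 to 0.24 for Col2a1, -0.071 to 0.21 for Col10a1, -0.050 to 0.21 for Col23a1, -0.055 to 0.22 for Col1a2, -0.027 to 0.51 for Col6a6, -0.050 to 0.56 for Col6a2 and -0.050 to 0.62 for Col20a1. Other settings turned the sign of 2 genes: with arrays centred on the median Col15a1 was at -0.031 and Col1a2 at -0.015, and Col15a1 was at -0.010 on the values as deposited, with or without the replicate block. The files give no background signal, so dim genes were told only by a mean at or below 6.03, the level taken from the receptor genes.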
